A study of Rattus norvegicus with 24 samples.

Results

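The genes described here encode enzymes that build glycosaminoglycans and other glycans: the glycosyltransferases and sulfotransferases of chondroitin, heparan and keratan sulfate, hyaluronan synthases, sialyl- and fucosyltransferases, the enzymes that start mucin-type O-glycans and branch N-glycans, and the enzymes that make their donor substrates. They were chosen by name: every gene whose single platform symbol starts with one of a set of family prefixes such as Chst, Chsy, Galnt or St3gal. This gave 91 of the 14217 genes with 1 platform symbol, represented by 140 probe sets, and each gene was read through its probe set of highest mean log2 signal. Only probe sets above the median of their own array in 4 or more of the 24 arrays entered the tests, which left 59 of the 91 (64.8%), against 10539 of the 14217 genes (74.1%).

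Cartilage was taken from the proximal tibia of 1-week-old rats that had not been castrated, in frozen sections of 60 µm from which zones were cut by hand. Each zone of each animal was hybridised to an Affymetrix array after 50 to 100 ng of RNA had been amplified. The 24 arrays hold epiphyseal cartilage (n = 4, animals 1, 2, 4 and 5) and the resting, proliferative, transition and hypertrophic zones of the growth plate (n = 5 each, animals 1 to 5). The labels of 15 arrays (resting, proliferative, hypertrophic) call the rats male, while the other 9 arrays (epiphyseal, transition) carry another wording without a sex, so this difference in labelling and the zone cannot be told apart in comparisons that involve epiphyseal cartilage or the transition zone. No strain was given in the labels.

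Cartilage matrix owes its swelling pressure to aggrecan, a core protein that carries many chondroitin and keratan sulfate chains and is held in the tissue by hyaluronan. Chondroitin and heparan sulfate chains start from the same linkage sugars on a serine of the core protein, are lengthened by polymerases and are then sulfated from a single activated sulfate donor. In the growth plate, heparan sulfate binds hedgehog and fibroblast growth factor ligands, and hypertrophic chondrocytes enlarge within a matrix that is later mineralised. Sialic acids cap the ends of N- and O-linked glycans on many secreted and membrane glycoproteins.

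Signals are MAS5 intensities on a linear scale, given for animals 1 to 5 in that order, and for animals 1, 2, 4 and 5 in epiphyseal cartilage. The array median ranged from 135.3 to 244.6. The cartilage markers Col2a1, the type II collagen gene, and Acan, which encodes aggrecan, had zone means between 59868 and 74791 and between 33982.5 and 43651. Neither differed across the zones in the moderated F test (adjusted p = 0.594 and 0.362). The other 2 of the 4 tested cartilage markers, Matn1 and Comp, did differ in it (adjusted p = 3.18e-06 and 5.83e-06). Matn1 averaged 6934 in the hypertrophic and 16626 in the proliferative zone, and Comp 41118 in the proliferative and 22063 in the resting zone. Precision is limited by the number of arrays. Fold changes are log2 differences of signal + 16 with the standard error of the limma fit in which the animal is a block. A gene is called, and said to rise or fall, at a Benjamini-Hochberg adjusted p below 0.05 over all tested probe sets and a fold of at least 2. In 9 of the 48 calls no array of the lower zone was above its own array median, which concerns Chst5, Chst12, Galnt6, Galnt18 and St6gal1, and the size of such a fold depends on the 16 that is added. In sections of whole tissue, fewer cells of a type and less RNA per cell cannot be told apart.

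Across the 5 zones, 44 of the 59 tested glycan synthesis genes differed in the moderated F test, where 60.6% of all tested genes did. Over the 3 zones of like labelling, 39 did, against 52.0% of all genes. At least 1 of the 5 comparisons called 26 of the 59 (44.1%), against 26.3% of all tested genes. The highest zone mean fell in the proliferative zone for 17 of the 59 (28.8%, against 19.4% of all genes), and the lowest in the hypertrophic zone for 26 (44.1%, against 27.1%). The spread between zone means was narrowest for B4galt3, a galactosyltransferase gene, at a log2 range of 0.19, and widest for St6galnac2, at 4.64.

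Between resting and epiphyseal cartilage 1 of the 59 genes rose, where 0.626% of all tested genes did, and 2 fell, where 1.05% did. The riser was B3gnt7, and Galnt18 and B3gnt2 fell. The osteoclast and macrophage marker sums of the epiphyseal arrays were 64753 and 30585 in animals 1 and 2, against 3283 and 2709 in animals 4 and 5. When the epiphyseal arrays from animals 1 and 2 were left out, none was called. Only the epiphyseal arrays of animals 4 and 5 then remained, so the loss of arrays and the marker sums cannot be told apart. B3gnt2 was then at -1.03 (adjusted p = 0.0536), Galnt18 at -0.996 (adjusted p = 0.213) and B3gnt7 at 0.93 (adjusted p = 0.239). In the proliferative against the resting zone St3gal4, Ugdh and St3gal2 rose and Galnt18 fell, 3 rises (2.15% of all genes) and 1 fall (3.98% of all genes).

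Markers of tissue beside the cartilage fell in the proliferative against the resting zone as well. Of 5 tested skeletal muscle markers 3 fell, as did 2 of 6 leukocyte markers, 1 of 6 osteoclast and macrophage markers and 1 of 3 osteoblast markers. The summed muscle signal ran from 5307 to 15289 in proliferative arrays, against 10434 to 78578 in resting arrays. The highest of these were 78578 and 53344, in the resting arrays of animals 3 and 5. The summed osteoclast and macrophage signal ran from 693 to 1427 in proliferative arrays, against 1546 to 25391 in resting arrays. No marker of these lists was listed at 0. Without the resting arrays of animals 4 and 5, a setting chosen after seeing the data, St3gal4, Ugdh and St3gal2 were still called, while Galnt18 was at -0.88 (adjusted p = 0.0733) and, in the resting zone against epiphyseal cartilage, B3gnt7 at 0.88 (adjusted p = 0.241), neither a call. That setting kept the resting arrays of animal 3, with the highest muscle sum, and animal 1, with the highest osteoclast and macrophage sum. It dropped the array of animal 4, whose muscle sum was 11889, so it cannot show whether the calls depend on these tissues. The part of these tissues in the differences was not tested.

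In the transition against the proliferative zone 6 of the 59 genes rose (10.2%, against 3.39% of all genes) and 4 fell (6.78%, against 5.09%). In the hypertrophic against the transition zone 3 rose (5.08%, against 7.44%) and 6 fell (10.2%, against 2.43%). The hypertrophic against the proliferative zone, in arrays of like labelling, had 8 rises (13.6%, against 10.3%) and 14 falls (23.7%, against 8.98%), with a median log2 fold change of -0.34 over the 59 genes, against -0.04 over all tested genes. The median was -0.12, against -0.01, in the hypertrophic against the transition zone, and -0.15, against -0.03, in the transition against the proliferative zone. It was 0.18, against 0.02, in the proliferative against the resting zone and 0.03, against 0.02, in the resting zone against epiphyseal cartilage. Comparisons that have a zone in common use the same arrays of it, so their values are not independent.

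Scaling every array to one median moves the median of all genes between the hypertrophic and the transition zone to -0.27 and that of the 59 genes to -0.38. The 59 genes then had 2 rises and 11 falls there. Between the transition and the proliferative zone it moves the median of all genes to 0.12 and that of the 59 genes to 0.01. The 59 genes then had 8 rises and 2 falls. The shares of all genes called under this scaling are not given, so these counts cannot be read as particular to the 59 genes.

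**Figure D1:**
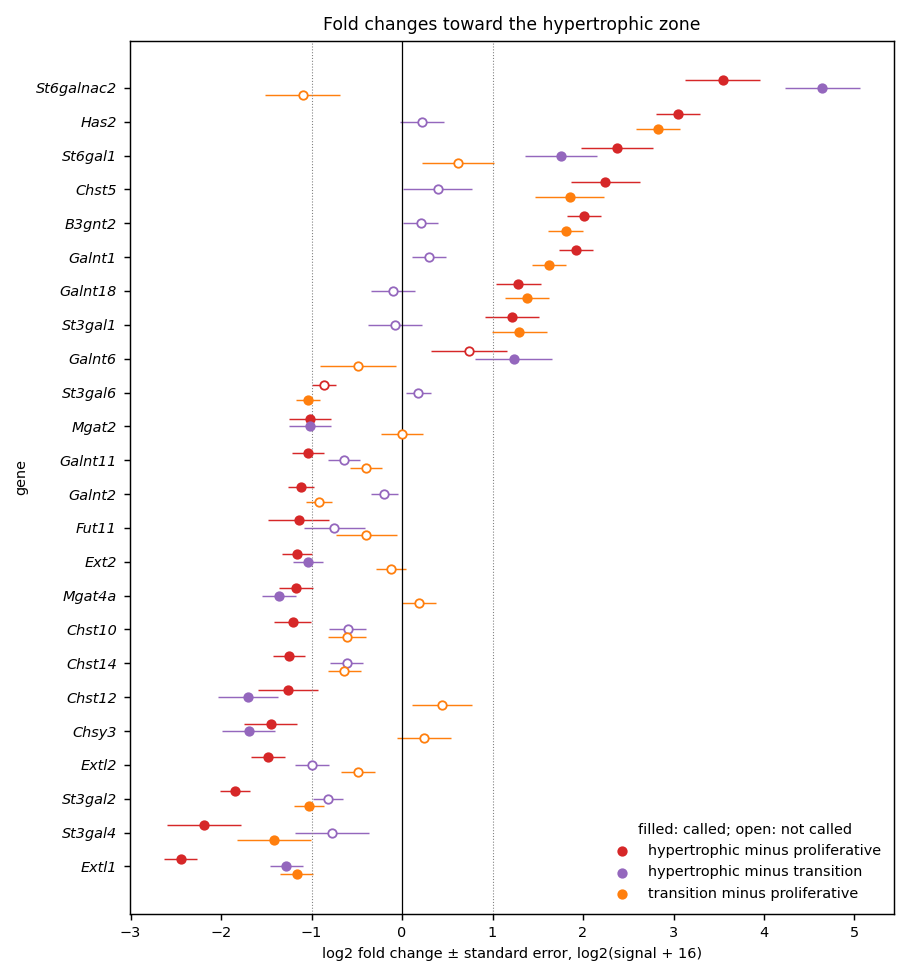
Log2 fold changes on the log2(signal + 16) scale with standard errors for the 24 genes called in at least 1 of 3 comparisons, ordered by the hypertrophic against proliferative change; filled points are called, open points are not, and dotted lines mark 2-fold. Has2, Chst5, B3gnt2 and Galnt1 have their rises in the transition against the proliferative zone, while St6galnac2 rises in the hypertrophic against the transition zone, by 4.64.

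The 32 genes that were not tested include Chst3 and Chst11, whose products sulfate chondroitin at its 6- and 4-positions, and Xylt1, which encodes one of a pair of enzymes that start glycosaminoglycan chains. Of these 32, 22 were above the array median in no array and 10 in 1 to 3 arrays, and their median signals ranged from 6.95 for St8sia2 to 111.05 for Xylt1. The same group holds 5 of 14 heparan genes, 7 of 16 sialyltransferase genes with all 4 St8sia genes, and 5 of 13 Galnt genes. Just inside the limit were Galnt6, above the median in 5 arrays, and Chst8, in 6. Just outside it were Galnt13, B3galt4 and St8sia3, in 3 arrays each. One probe set that lists both Hs3st3a1 and Hs3st3b1 was left out. Control probe sets at the 3' end read above those at the 5' end of the same transcript in every zone. The zone means of this log2 ratio ran from 4.03 to 4.47 for actin and from 2.57 to 2.96 for Gapdh. Where the probe sets of these genes lie was not examined, so a low signal does not show that a gene is not expressed.

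**Figure D2:**
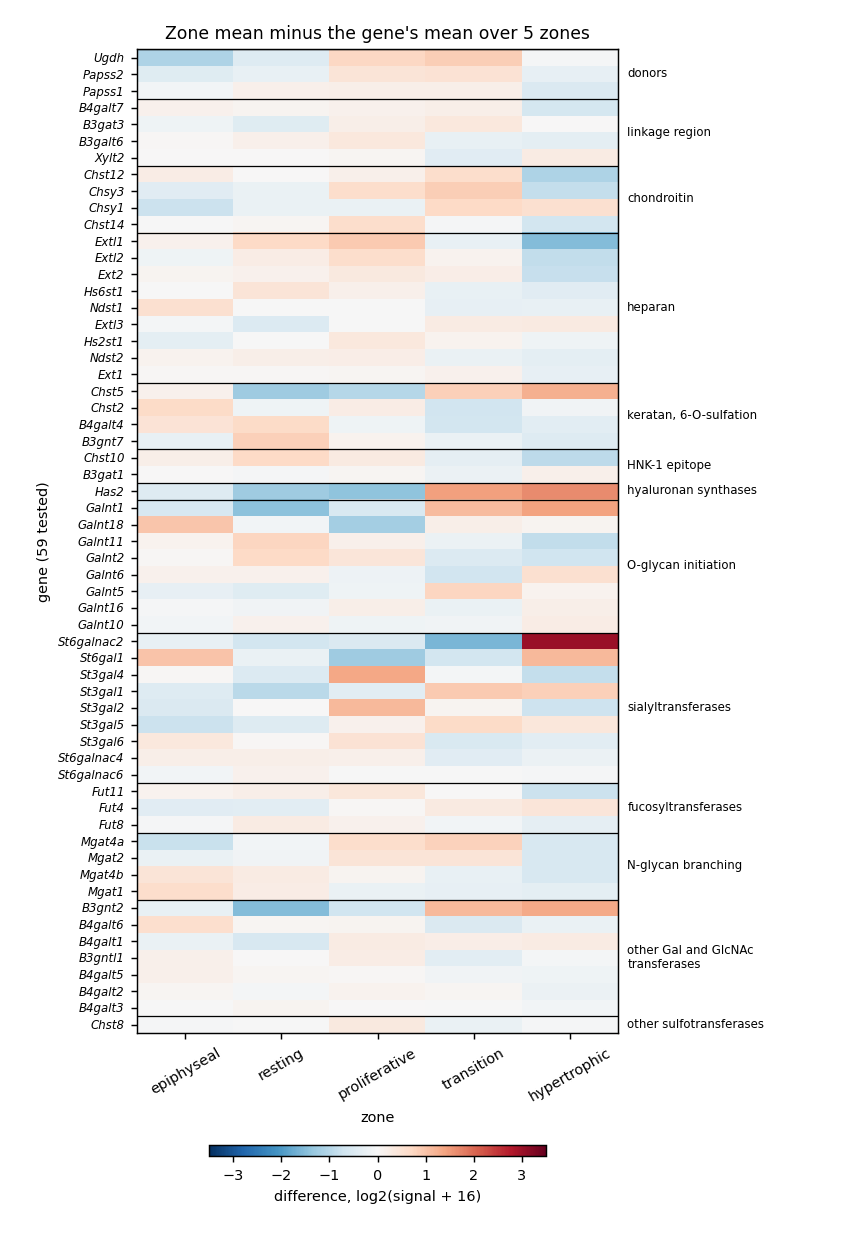
Differences of each zone mean from the gene's mean over the 5 zones, in log2(signal + 16), for the 59 tested genes grouped by role (rows) and the 5 zones from epiphyseal to hypertrophic (columns); red is above and blue below the gene's own mean. The hypertrophic column is the lowest for 26 genes and the proliferative column the highest for 17, and the deepest red is St6galnac2 in the hypertrophic zone.

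Of the 3 genes for donor substrates, all passed the F test, where 60.6% of all tested genes did. Ugdh and Papss2 had their high levels in the proliferative and transition zones. Ugdh, whose product oxidises UDP-glucose to the glucuronic acid donor of chondroitin, heparan sulfate and hyaluronan, had signals of 12982, 9752, 12667, 7743 and 8484 in the proliferative zone, against 3927, 6523, 5446.5, 3711 and 3541.5 in the resting zone. It stood at 2334, 3112, 3476 and 2649 in epiphyseal cartilage, 11775, 9716, 13160.1, 8649 and 13224 in the transition zone and 6439, 4912, 9480.3, 4830.0 and 4898 in the hypertrophic zone. Every proliferative array lay above every resting array, while the hypertrophic array of animal 3 lay among the transition arrays. Ugdh rose in the proliferative against the resting zone by 1.17 ± 0.17 (adjusted p = 3.36e-05). Between the hypertrophic and the transition zone it differed by -0.92 ± 0.17 (adjusted p = 0.00041), under 2-fold, which became a call without animal 3 (-1.03).

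Papss2, one of a pair of genes for synthases of the sulfate donor and the one whose loss causes short limbs in mice, averaged 23366 ± 3963 in the proliferative against 13913 ± 1277 in the resting zone (SD, n = 5 each). It averaged 14143 ± 3669.6 in the hypertrophic against 24065.5 ± 2779.6 in the transition zone. Both differences, 0.73 ± 0.15 (adjusted p = 0.00171) and -0.80 ± 0.15 (adjusted p = 0.000501), were the same in sign in 5 of 5 animals, without overlap between the groups, and under 2-fold. Another probe set of Papss2 was called in both comparisons, at 1.15 (adjusted p = 0.00999) and -1.09 (adjusted p = 0.00973). Papss1, the paired synthase gene, stayed under 2-fold in every comparison, and its hypertrophic against transition difference was -0.73 ± 0.17 (adjusted p = 0.00233).

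None of the 4 tested linkage region genes was called in any comparison, where 26.3% of all tested genes were called in at least 1. B4galt7, which encodes the first galactosyltransferase of the linkage sugars, averaged 1002 ± 146 in the hypertrophic against 1786 ± 312 in the transition zone (SD, n = 5 each), and the groups did not overlap. The difference was -0.82 ± 0.14 (adjusted p = 0.000153), under 2-fold, which became a call with scaling to one median (-1.085). Xylt2, which encodes a xylosyltransferase that adds the first sugar, went the other way, with 0.69 ± 0.16 (adjusted p = 0.00228) in the same comparison, and B3gat3, the linkage glucuronyltransferase gene, differed by -0.34 ± 0.21 (adjusted p = 0.248).

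The chondroitin polymerase genes Chsy1 and Chsy3 parted in the hypertrophic zone. Chsy3 averaged 208.5 ± 127 in the hypertrophic against 665 ± 177 in the transition zone and fell by 1.69 ± 0.29 (adjusted p = 0.000163), in 5 of 5 animals with some overlap between the groups. Chsy1 averaged 17505 ± 3359 in the hypertrophic against 10103 ± 1311 in the proliferative zone, a difference of 0.78 ± 0.17 (adjusted p = 0.000554), under 2-fold and without overlap. In the transition against the proliferative zone Chsy1 differed by 0.91 ± 0.17 (adjusted p = 0.000239), a call without animal 3 (1.00). For Chsy3 the hypertrophic against proliferative difference was -1.45 ± 0.29 (adjusted p = 0.000337), which is a fall. The 2 genes were not tested against each other.

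The chondroitin sulfotransferase genes Chst12 and Chst14 both fell in the hypertrophic zone. Chst12, whose product adds 4-O-sulfate, averaged 87.8 ± 62.8 there, against 266 ± 54.1 in the transition zone, a log2 fold change of -1.70 ± 0.33 (adjusted p = 0.000541) without overlap. Against the proliferative zone, at 195 ± 53.5, the change was -1.26 ± 0.33 (adjusted p = 0.00394), with overlap. Chst14, the 4-O-sulfotransferase gene of dermatan sulfate, averaged 394 ± 113 in the hypertrophic and 937 ± 158 in the proliferative zone and changed by -1.25 ± 0.18 (adjusted p = 6.07e-06), without overlap and in 5 of 5 animals. With a pseudocount of 64 the hypertrophic against proliferative change of Chst12 was -0.85 and no longer a call, and no hypertrophic array of Chst12 was above its array median. Of the 4 tested chondroitin genes, all passed the F test, where 60.6% of all tested genes did, and 3 fell in the hypertrophic against the proliferative zone, where 8.98% did.

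Of the 9 tested heparan sulfate genes, 3 fell in the hypertrophic against the proliferative zone, where 8.98% of all tested genes did. None rose in any comparison, where between 0.626% and 10.3% of all tested genes rose, depending on the comparison. Extl1, a gene of the exostosin-like glucosaminyltransferases, had signals of 369, 506, 284, 252 and 479.8 in the hypertrophic zone, against 2166, 1649, 1828, 2557 and 2225 in the proliferative zone. The other zones gave 1531, 1121.5, 1286 and 939 in epiphyseal cartilage, 2019.7, 1664, 1429, 2014 and 1816 in the resting zone and 933, 795, 858, 1213 and 805 in the transition zone. Hypertrophic arrays were below every other array, and transition arrays were below every proliferative and resting array. The change was -2.45 ± 0.18 (adjusted p = 1.34e-10) in the hypertrophic against the proliferative zone, -1.28 ± 0.18 (adjusted p = 1.4e-05) against the transition zone and -1.17 ± 0.18 (adjusted p = 4.02e-05) in the transition against the proliferative zone. The other tested probe set of Extl1 was called at -1.80 (adjusted p = 4.5e-05) and -1.35 (adjusted p = 0.00221) in the first pair of these and not in the third, at -0.44 (adjusted p = 0.333).

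Ext2, which encodes a subunit of the heparan polymerase, averaged 2222 ± 705 in the hypertrophic zone, against 4453 ± 881 in the transition and 4797 ± 426 in the proliferative zone. It fell by 1.04 ± 0.17 (adjusted p = 7.75e-05) against the transition zone and by 1.16 ± 0.17 (adjusted p = 6.09e-06) against the proliferative zone, without overlap in either. Without animal 5 these values were -0.77 and -0.99, and without the transition array of animal 5 the value against the transition zone was -0.92, none of them a call. Extl2 averaged 210.1 ± 42.7 in the hypertrophic and 613 ± 99.3 in the proliferative zone and changed by -1.48 ± 0.19 (adjusted p = 8.66e-07), while a further probe set of it gave -0.37 (adjusted p = 0.369). The sulfation genes Ndst2, for N-sulfation, and Hs2st1, for 2-O-sulfation, differed by -0.58 ± 0.17 (adjusted p = 0.00827) and -0.50 ± 0.18 (adjusted p = 0.0308) in the hypertrophic against the proliferative zone, both under 2-fold. The median over the 9 tested heparan genes in this comparison was -0.58, beside -0.04 over all tested genes.

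Among the genes of keratan sulfate and 6-O-sulfation, Chst5 was high on the hypertrophic side and B3gnt7 in the resting zone. Chst5, whose product adds 6-O-sulfate to N-acetylglucosamine and serves corneal keratan sulfate in mice, had signals of 353, 344, 211, 266.5 and 348 in the transition zone, against 133, 21.5, 55.1, 119.5 and 77.9 in the proliferative zone. It had 177, 79.9, 248 and 286 in epiphyseal cartilage, 19.6, 68.3, 26.0, 131 and 109.7 in the resting zone and 442, 399, 494.5, 325 and 351 in the hypertrophic zone. All transition and hypertrophic arrays lay above all resting and proliferative arrays, and epiphyseal arrays overlapped both sides. Chst5 rose by 1.85 ± 0.38 (adjusted p = 0.000944) in the transition and by 2.25 ± 0.38 (adjusted p = 4.59e-05) in the hypertrophic against the proliferative zone. No proliferative array of Chst5 was above its array median, so it passed the filter through the other zones, and with pseudocounts of 1 and 64 these rises were 2.11 and 1.39, and 2.52 and 1.73. Its other probe set was called in both as well, at 1.59 (adjusted p = 0.0177) and 1.76 (adjusted p = 0.00482).

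B3gnt7, which encodes a glucosaminyltransferase of keratan sulfate chains, averaged 508 ± 134 in the resting zone (n = 5), against 229 ± 64.5 in epiphyseal cartilage (n = 4), without overlap. It rose by 1.06 ± 0.26 (adjusted p = 0.024), but the call was lost without animal 1, 2 or 4, where adjusted p lay between 0.0999 and 0.163. B4galt4, whose product adds galactose to 6-sulfated N-acetylglucosamine, averaged 674 ± 72.3 in the proliferative and 1222 ± 135 in the resting zone, a difference of -0.84 ± 0.16 (adjusted p = 0.000663), under 2-fold and without overlap. Chst2, a further 6-O-sulfotransferase gene, differed by -0.95 ± 0.30 (adjusted p = 0.0278) in the transition against the proliferative zone, and became a call at a pseudocount of 1 (-1.03) and without animal 1 (-1.06), animal 2 (-1.14) or animal 3 (-1.02).

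Chst10 encodes the sulfotransferase of the HNK-1 carbohydrate, an epitope known from nerve tissue. It averaged 336 ± 125 in the hypertrophic and 765 ± 139.8 in the proliferative zone and fell by 1.21 ± 0.20 (adjusted p = 4.36e-05), without overlap. Without the hypertrophic array of animal 4 the value was -0.96, and without all arrays of animal 4 it was -0.93, neither a call. B3gat1, the glucuronyltransferase gene of the same epitope, did not pass the F test (adjusted p = 0.814). 

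Has2 was the only hyaluronan synthase gene that the name rule found, and it had the largest change between the transition and the proliferative zone of the 59 genes. Its signals were 5234, 4892.5, 3382, 2674 and 5788 in the transition zone, against 928, 879, 576, 364 and 378 in the proliferative zone. The remaining zones gave 1062, 1192.5, 1327 and 985 in epiphyseal cartilage, 911, 741, 530.0, 723 and 451 in the resting zone and 8002, 5455, 7378, 2523 and 3568 in the hypertrophic zone. Every transition and hypertrophic array was above every other array. Has2 rose by 2.83 ± 0.24 (adjusted p = 8.87e-09) in the transition zone and by 3.05 ± 0.24 (adjusted p = 4.42e-10) in the hypertrophic zone, each against the same proliferative arrays, and in 5 of 5 animals. Between the hypertrophic and the transition zone the difference was 0.22 ± 0.24 (adjusted p = 0.561) and the arrays overlapped.

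Genes that start mucin-type O-glycans moved in both directions. Galnt1, which encodes an N-acetylgalactosaminyltransferase that works on many proteins, had signals of 4487, 7259.6, 3707, 2575 and 5442.5 in the transition zone, against 1402, 2058, 1537, 910.1 and 1439 in the proliferative zone. Elsewhere they were 1550.2, 1563, 1410.2 and 1105 in epiphyseal cartilage, 987, 728, 669, 697 and 717 in the resting zone and 6588, 6710.0, 7422, 3783 and 3835 in the hypertrophic zone. Transition and hypertrophic arrays lay above all others, and resting arrays lay below all epiphyseal arrays. Galnt1 rose by 1.63 ± 0.19 (adjusted p = 9.16e-07) in the transition and 1.92 ± 0.19 (adjusted p = 1.96e-08) in the hypertrophic against the proliferative zone, and 2 further probe sets were called in both comparisons, between 1.11 and 1.65. It was -0.89 ± 0.21 (adjusted p = 0.0159) in the resting zone against epiphyseal cartilage and 0.90 ± 0.19 (adjusted p = 0.00175) in the proliferative against the resting zone, both under 2-fold. The proliferative against resting difference became a call without animal 1 (1.01) or animal 4 (1.04) and without the resting arrays of animals 4 and 5 (1.05), and the resting against epiphyseal difference became one without those resting arrays (-1.04).

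Galnt18, a further gene of this family, had signals of 281, 296, 324, 409.7 and 366 in the transition zone, against 120.5, 90.4, 87.7, 167.5 and 137 in the proliferative zone. It had 525, 571, 647 and 581.5 in epiphyseal cartilage, 334, 159, 199.7, 366.5 and 343 in the resting zone and 451.5, 234.5, 432, 192 and 319 in the hypertrophic zone. Epiphyseal arrays were the highest and proliferative arrays the lowest, and only the resting array of animal 2 reached down among the proliferative ones. The log2 fold change was -1.05 ± 0.26 (adjusted p = 0.0282) in the resting zone against epiphyseal cartilage and -1.08 ± 0.25 (adjusted p = 0.0034) in the proliferative against the resting zone. It was 1.38 ± 0.25 (adjusted p = 0.000194) in the transition and 1.29 ± 0.25 (adjusted p = 0.000175) in the hypertrophic against the proliferative zone. No proliferative array of Galnt18 was above its array median, and with a pseudocount of 64 the last 3 values were -0.87, 1.12 and 1.04. The resting against epiphyseal call was lost without animal 1, 2, 3 or 5, at adjusted p between 0.061 and 0.325.

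Galnt2 and Galnt11, which encode transferases of the same family, fell in the hypertrophic against the proliferative zone. Galnt2 averaged 3449 ± 719 in the hypertrophic and 7488 ± 1447 in the proliferative zone and changed by -1.12 ± 0.14 (adjusted p = 1.29e-06), without overlap. Its other 4 tested probe sets gave -1.31, -0.62, -0.05 and 0.29, of which the first was called, so probe sets of this gene disagree. Galnt11 averaged 510.4 ± 107 and 1067 ± 207 in the same zones and changed by -1.04 ± 0.18 (adjusted p = 4.08e-05), and without animal 2, 3 or 5 it lay between -0.996 and -0.93, no longer a call. Galnt6 averaged 162 ± 44.1 in the hypertrophic and 62.2 ± 27.7 in the transition zone and rose by 1.23 ± 0.42 (adjusted p = 0.0363), and the call was lost without animal 1, 2, 4 or 5, at adjusted p between 0.0519 and 0.131. Of the 8 tested genes of the family, 5 passed the F test, where 60.6% of all tested genes did.

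**Figure D3:**
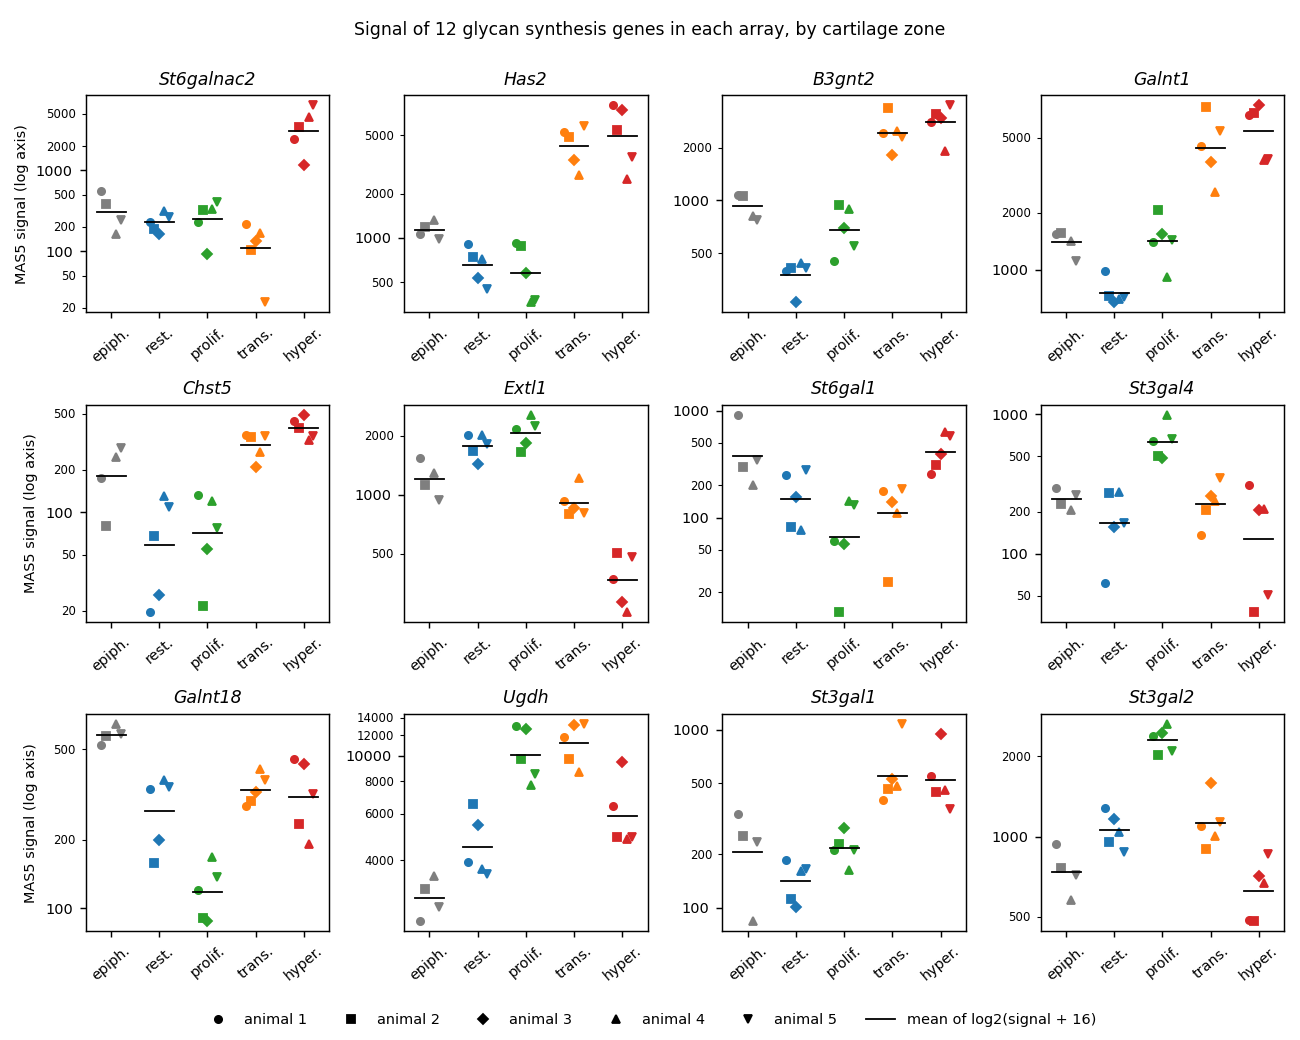
MAS5 signal (log axis) of 12 genes in each array, by zone from epiphyseal to hypertrophic, with a marker shape per animal and a line at the mean of log2(signal + 16), drawn back on the signal axis. St6galnac2 is high in the 5 hypertrophic arrays, from 1174 to 6402, and in none of the other 19, while Has2, B3gnt2, Galnt1 and Chst5 are already high in the transition arrays.

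Among the sialyltransferase genes, St6galnac2 had the largest change of the 59 genes. It encodes an enzyme that links sialic acid to the N-acetylgalactosamine at the base of O-glycans. Its signals were 2452.5, 3417, 1174, 4576 and 6402 in the hypertrophic zone, against 219, 103, 136, 167 and 23.3 in the transition zone. They were 549.6, 379.8, 166 and 241 in epiphyseal cartilage, 233, 191, 164, 314 and 266 in the resting zone and 229.5, 328, 92.9, 338 and 407 in the proliferative zone. The lowest hypertrophic array, of animal 3, was above the highest of the other 19 arrays, the epiphyseal array of animal 1, and the lowest of all was the transition array of animal 5. The rise was 4.64 ± 0.41 (adjusted p = 2.48e-08) against the transition zone and 3.54 ± 0.41 (adjusted p = 2.5e-07) against the proliferative zone, in 5 of 5 animals. Without the transition array of animal 5 the rise against the transition zone was 4.11, and over all alternative settings it lay between 3.97 and 5.06. In the transition zone 2 of 5 arrays were above their array median for this gene, and in the proliferative zone 4 of 5. The transition against proliferative difference was -1.10 ± 0.41 (adjusted p = 0.059), not a call, which became one without animal 1 (-1.36) or animal 3 (-1.50, adjusted p = 0.0202).

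St6gal1, which encodes the enzyme that links sialic acid to galactose of N-glycans, also rose in the hypertrophic zone. Its signals were 255, 311, 395, 628 and 578 in the hypertrophic zone, against 178, 24.8, 141, 111 and 186.5 in the transition zone. In the other zones they were 922, 297, 203 and 347 in epiphyseal cartilage, 249, 81.1, 157, 76.9 and 279.9 in the resting zone and 60.3, 13.1, 56.8, 142 and 131 in the proliferative zone. The hypertrophic arrays lay above all transition and proliferative arrays, and the single highest value was the epiphyseal array of animal 1. The log2 fold change was 1.75 ± 0.40 (adjusted p = 0.00232) against the transition zone and 2.37 ± 0.40 (adjusted p = 3.95e-05) against the proliferative zone. No proliferative array of St6gal1 was above its array median, and the second value was 2.72 with a pseudocount of 1 and 1.81 with one of 64.

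Markers of cells outside cartilage moved with these hypertrophic values. In the hypertrophic against the transition zone all 4 tested erythroid, 6 osteoclast and macrophage, 6 leukocyte and 3 osteoblast markers rose, and 3 of 5 muscle and 3 of 4 endothelial markers did. There, 2 of 4 hypertrophic cartilage markers and 2 of 4 markers of dividing cells rose as well. Over the 7 osteoclast and macrophage markers the summed signal ran from 8792.5 to 84236.5 in hypertrophic arrays, against 1187 to 2139 in transition arrays, and none was listed at 0. The hypertrophic array of animal 4 had the highest sum, with a St6galnac2 signal of 4576, and that of animal 5, with the highest St6galnac2 signal of 6402, had a sum of 10121.5. The epiphyseal array of animal 1 had a sum of 64753 and a St6galnac2 signal of 549.6, and the resting array of animal 1 had 25391 and 232.6. St6gal1 had its highest signals, 922 and 628, in the epiphyseal array of animal 1 and the hypertrophic array of animal 4, which had the highest sums. It was at 249 in the resting array of animal 1 and at 578 in the hypertrophic array of animal 5. Erythroid sums ran from 9499 to 32059 in hypertrophic and from 1006 to 5463 in transition arrays. In the hypertrophic arrays of animals 1 to 5 they were 26718.5, 19603, 9499, 19912 and 32059. Leukocyte sums in the same arrays were 5975, 5766, 2641.5, 10113 and 10612.5. Both sums, like St6galnac2, were lowest in animal 3 and highest in animal 5. The epiphyseal array of animal 1 had an erythroid sum of 15440 and a leukocyte sum of 5258. Without the hypertrophic array of animal 4 the rises against the transition zone were 4.55 for St6galnac2 and 1.56 for St6gal1. The part of the other cells in these rises was not tested. Between the transition and the proliferative zone no erythroid, osteoclast, leukocyte, muscle or endothelial marker was called as a rise, where 3.39% of all tested genes were. The osteoclast marker Mmp9 was at 1.36 ± 0.73 (adjusted p = 0.202), and 1 of 3 osteoblast markers, Ibsp, rose. The part of other cells in the rises of that comparison was not tested. In that comparison 3 of 4 hypertrophic cartilage markers rose and 4 of 4 markers of dividing cells fell.

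**Figure D4:**
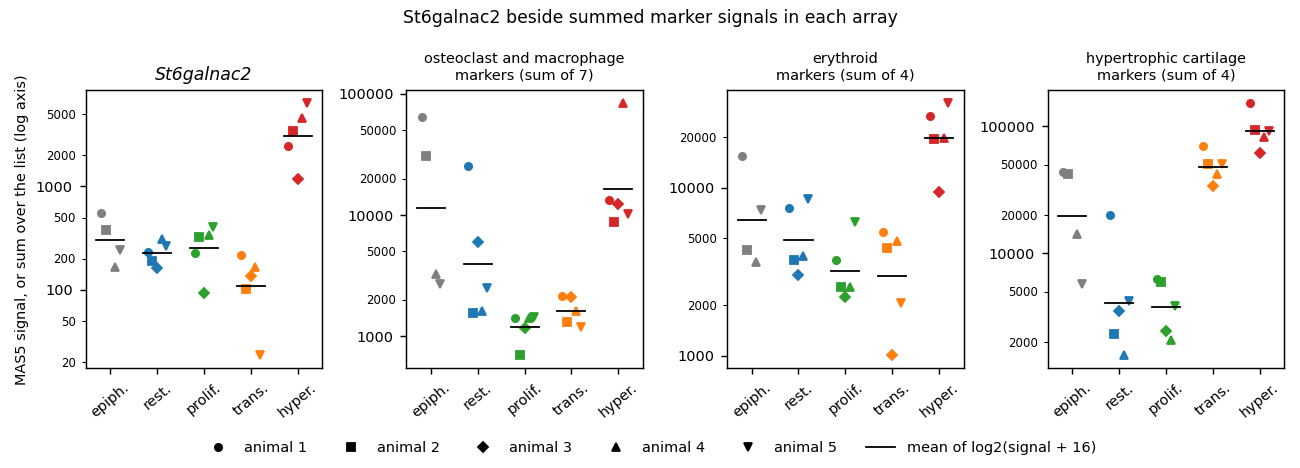
St6galnac2 signal and the summed signals of osteoclast and macrophage, erythroid and hypertrophic cartilage markers (log axes) in each array, by zone from epiphyseal to hypertrophic, with a marker shape per animal and a line at the mean of log2(signal + 16). The epiphyseal array of animal 1 has an osteoclast sum of 64753 and a St6galnac2 signal of 549.6, while hypertrophic arrays with sums of 8792.5 to 84236.5 have St6galnac2 signals of 1174 to 6402. Among hypertrophic arrays the erythroid sum and St6galnac2 are both lowest in animal 3 and highest in animal 5.

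St3gal1, whose product caps the galactose of O-glycans with sialic acid, had signals of 401, 462, 532, 481 and 1076 in the transition zone, against 211, 228, 281.5, 162 and 210.3 in the proliferative zone. It had 336, 254, 84.0 and 234 in epiphyseal cartilage, 185, 112, 101.2, 162 and 165 in the resting zone and 551, 445, 942, 461 and 361 in the hypertrophic zone. Transition and hypertrophic arrays lay above all other arrays, and the transition array of animal 5 stood highest. St3gal1 rose by 1.30 ± 0.30 (adjusted p = 0.00266) in the transition and by 1.22 ± 0.30 (adjusted p = 0.00228) in the hypertrophic against the proliferative zone.

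St3gal2 and St3gal4 peaked in the proliferative zone. St3gal2, which encodes an enzyme of the same linkage that also acts on gangliosides, had signals of 2386, 2021, 2446, 2639 and 2087 in the proliferative zone, against 1281, 954, 1166, 1037 and 878 in the resting zone. It had 934, 761, 579.8 and 721 in epiphyseal cartilage, 1093, 898.5, 1580.0, 1002 and 1137 in the transition zone and 487, 482, 713, 671 and 863 in the hypertrophic zone. The proliferative arrays lay above all others without overlap. The changes were 1.12 ± 0.17 (adjusted p = 3.4e-05) in the proliferative against the resting zone, -1.03 ± 0.17 (adjusted p = 6.61e-05) in the transition against the proliferative zone and -1.85 ± 0.17 (adjusted p = 3.89e-09) in the hypertrophic against the proliferative zone. The other tested probe set of St3gal2 was called in none of the 3, at 0.42, -0.24 and -0.05. Without animal 2 or 4 the transition against proliferative value was -0.998 or -0.94, under 2-fold.

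St3gal4, whose product sialylates the galactose of N-acetyllactosamine, had signals of 642, 504, 487, 991 and 657 in the proliferative zone, against 61.5, 272, 155, 274.5 and 167 in the resting zone. It had 293.5, 227, 205 and 265 in epiphyseal cartilage, 137, 207, 257, 239 and 349 in the transition zone and 313, 38.3, 207, 208.5 and 50.7 in the hypertrophic zone. The proliferative arrays again lay above all others, and hypertrophic arrays were widely spread, with those of animals 2 and 5 lowest. The changes were 1.83 ± 0.41 (adjusted p = 0.00305) in the proliferative against the resting zone, -1.42 ± 0.41 (adjusted p = 0.0146) in the transition and -2.19 ± 0.41 (adjusted p = 0.000145) in the hypertrophic against the proliferative zone. The other tested probe set gave 0.12, -0.21 and -0.12, none of them called. Without animal 4 the transition against proliferative value was -1.27 with an adjusted p of 0.0699.

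St3gal6, a further gene of this linkage, averaged 894 ± 50.6 in the transition and 1892 ± 413 in the proliferative zone and fell by 1.04 ± 0.14 (adjusted p = 4.34e-06), without overlap. The value was -0.97 without animal 4 and -0.98 without animal 5, both under 2-fold. St6galnac4, which encodes an enzyme that adds a further sialic acid to O-glycans, differed by -0.56 ± 0.16 (adjusted p = 0.011) in the same comparison. Of the 9 tested sialyltransferase genes, 8 passed the F test, against 60.6% of all tested genes. In the hypertrophic against the proliferative zone 3 rose, where 10.3% of all tested genes did, and 2 fell, where 8.98% did.

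B3gnt2, which encodes the main polymerase of N-acetyllactosamine chains, had its lowest values in the resting zone. Its signals there were 395, 411, 262, 438 and 413, against 1080.3, 1066, 817 and 777 in epiphyseal cartilage. They were 455, 947, 692, 898.5 and 549.6 in the proliferative zone, 2418, 3349.6, 1818, 2494 and 2289 in the transition zone and 2794, 3089.7, 2949.9, 1924 and 3489.6 in the hypertrophic zone. The resting arrays were below all other arrays, and the transition and hypertrophic arrays were above all others. B3gnt2 fell by 1.20 ± 0.21 (adjusted p = 0.000857) in the resting zone against epiphyseal cartilage, and differed by 0.83 ± 0.19 (adjusted p = 0.00409) in the proliferative against the resting zone, under 2-fold. It rose by 1.81 ± 0.19 (adjusted p = 1.99e-07) in the transition and 2.01 ± 0.19 (adjusted p = 9.9e-09) in the hypertrophic against the proliferative zone. Another B3gnt2 probe set was called in these last comparisons, at 2.59 (adjusted p = 0.000241) and 3.30 (adjusted p = 4e-06), and not between resting and epiphyseal cartilage, at -1.50 (adjusted p = 0.132).

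The N-glycan branching genes Mgat2 and Mgat4a fell in the hypertrophic zone. Mgat4a, whose product adds a β1,4-linked branch, averaged 695 ± 358 in the hypertrophic and 1673 ± 373 in the transition zone and changed by -1.36 ± 0.19 (adjusted p = 9.56e-06), without overlap. Against the proliferative zone, at 1452 ± 237, its change was -1.17 ± 0.19 (adjusted p = 2.08e-05), and without animal 4 it was -0.99, under 2-fold. The other tested Mgat4a probe set was called in neither, at -0.32 and -0.55. Mgat2, which encodes the enzyme of the second branch, averaged 564 ± 131 in the hypertrophic, 1183 ± 419.5 in the transition and 1168 ± 355 in the proliferative zone. It changed by -1.01 ± 0.23 (adjusted p = 0.0025) and -1.02 ± 0.23 (adjusted p = 0.00117), and both values were under 2-fold without animal 1 or animal 2, between -0.97 and -0.90. Without animal 5 or the transition array of animal 5 the first was -0.93 or -0.82, under 2-fold too.

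Mgat4b, a paralog of Mgat4a, differed by -0.66 ± 0.19 (adjusted p = 0.00707) in the hypertrophic against the proliferative zone. Fut11 averaged 81.7 ± 56.1 in the hypertrophic and 179 ± 26.1 in the proliferative zone and fell by 1.14 ± 0.34 (adjusted p = 0.0089) in 4 of 5 animals, and without animal 1 adjusted p was 0.0524. Fut4, whose product makes Lewis x structures, passed the F test (adjusted p = 0.000184) with no call, and Fut8, the core fucosyltransferase gene, did not (adjusted p = 0.0678). The galactosyltransferase genes B4galt3 and B4galt5 and the sulfotransferase gene Chst8 did not pass it either, with adjusted p of 0.746, 0.642 and 0.771.

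Promoters are shown for 3 of these genes, Chst5 and B3gnt2, which rose in the transition zone, and Extl1, which fell there. They are the 300 bases around the start of each gene in RefSeq's GRCr8 assembly, from 250 before to 50 after it, on the minus strand at chr19:56790223-56790522 for Chst5, chr14:101034458-101034757 for B3gnt2 and chr5:151872781-151873080 for Extl1. Capitals mark matches on either strand to the RUNX core TGTGGT or the AP-1 motif TGANTCA, and Chst5 and Extl1 hold none.
Chst5: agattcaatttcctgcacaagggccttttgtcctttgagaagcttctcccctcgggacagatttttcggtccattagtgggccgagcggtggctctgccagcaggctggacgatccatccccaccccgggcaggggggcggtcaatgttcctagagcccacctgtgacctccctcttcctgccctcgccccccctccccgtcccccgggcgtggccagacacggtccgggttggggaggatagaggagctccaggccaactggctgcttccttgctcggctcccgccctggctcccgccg
B3gnt2: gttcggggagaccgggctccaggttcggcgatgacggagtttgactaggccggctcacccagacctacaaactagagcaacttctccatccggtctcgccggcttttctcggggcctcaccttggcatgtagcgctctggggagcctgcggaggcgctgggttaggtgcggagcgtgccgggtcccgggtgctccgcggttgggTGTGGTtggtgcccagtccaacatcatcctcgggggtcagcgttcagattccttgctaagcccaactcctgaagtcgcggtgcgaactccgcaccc
Extl1: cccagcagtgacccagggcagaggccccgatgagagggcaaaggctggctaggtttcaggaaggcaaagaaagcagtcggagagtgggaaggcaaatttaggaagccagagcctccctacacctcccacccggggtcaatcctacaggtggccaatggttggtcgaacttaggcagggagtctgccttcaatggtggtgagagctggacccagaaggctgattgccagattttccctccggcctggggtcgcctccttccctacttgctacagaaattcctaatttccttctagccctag

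The match in the B3gnt2 window lies at -46 from the start. Of the 91 genes, 73 had a window in the table. The RUNX core was found in 5 of the 73 windows (6.85%), against 16.9% of 27457 windows of all genes, and the AP-1 motif in 1 (1.37%), against 7.33%. The hypoxia response core ACGTG was found in 14 (19.2%), against 19.7%, and the SOX core ACAATG in 4 (5.48%), against 13.03%. None of these motifs contains another, a match is not a binding site, and the windows of all genes include these 73.

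Enzymes that work beside these were read from a list of 17 partner genes, of which 14 were on the array under 1 symbol and 13 were tested. All 13 passed the F test, against 60.6% of all tested genes. In the proliferative against the resting zone Sulf2, Csgalnact2 and C1galt1 fell, where 3.98% of all genes did, and in the transition against the proliferative zone Sulf2, Pxylp1 and Gcnt2 rose, where 3.39% did. In the hypertrophic against the transition zone Fam20b, Csgalnact1 and Dsel fell, where 2.43% of all genes did, and none rose, where 7.44% did. Against the proliferative zone 2 rose and 4 fell, where 10.3% and 8.98% did. Dsel was under 2-fold without animal 2, 3 or 5 or the transition array of animal 5, between -0.98 and -0.94, Csgalnact1 without animal 4 (-0.91) or its hypertrophic array (-0.94), and Gcnt2 without animal 5 (0.91) or its transition array (0.97). Fam20b, the kinase gene of the linkage xylose, averaged 2299 ± 618 in the hypertrophic and 5321 ± 797 in the transition zone and changed by -1.23 ± 0.14 (adjusted p = 7.73e-07). With the tested probe sets of Fam20b averaged, this value was -0.84, under 2-fold. Pxylp1, which encodes the phosphatase that removes the same phosphate, averaged 22123 ± 4937 in the transition and 8576 ± 1221 in the proliferative zone and rose by 1.35 ± 0.18 (adjusted p = 6.75e-06). C1galt1, whose product extends the O-glycans that Galnt enzymes start, averaged 1393 ± 375 in the proliferative and 2807 ± 754 in the resting zone and fell by 1.00 ± 0.19 (adjusted p = 0.000565), and without animal 3 or 4 the value was -0.93 or -0.89, under 2-fold. In the hypertrophic against the proliferative zone C1galt1 fell too, and without animal 2 that value was -0.995.

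Of 24 genes of precursor supply and transport, 20 were tested and 12 passed the F test, against 60.6% of all tested genes. Gfpt2, which encodes an entry enzyme of the hexosamine pathway, was the only one of the 20 called in any comparison, where 26.3% of all tested genes were. It averaged 1791 ± 1333 in the hypertrophic and 5038 ± 1402 in the transition zone and fell by 1.68 ± 0.22 (adjusted p = 4.93e-06), and it rose by 1.17 ± 0.24 (adjusted p = 0.00468) in the resting zone against epiphyseal cartilage. That last call was lost without animal 1 or 2 or the epiphyseal arrays of both, at adjusted p between 0.069 and 0.153. Nans, a sialic acid synthase gene, averaged 1878 ± 464 in the hypertrophic and 2762 ± 552 in the transition zone and was not called.

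Of 19 genes of glycosaminoglycan breakdown, 13 were tested and 6 passed the F test, against 60.6% of all tested genes. Hpse, the heparanase gene, averaged 189.7 ± 47.2 in the proliferative and 31.8 ± 30.5 in the resting zone and rose by 2.27 ± 0.44 (adjusted p = 0.000786). No resting array of Hpse was above its array median, so the size of the rise depends on what is added to the signal, and it was 3.00 with a pseudocount of 1 and 1.43 with one of 64. Hyal2, a hyaluronidase gene, averaged 685 ± 96.6 in the transition and 1642 ± 300.2 in the proliferative zone and changed by -1.23 ± 0.17 (adjusted p = 8.42e-06), and it fell against the proliferative zone in the hypertrophic zone too. Idua, the iduronidase gene, averaged 741 ± 179.7 in the transition and 1193 ± 209 in the proliferative zone and was not called.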

How the data were processed

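Each deposited file gives intensity as linear MAS5 signals of the probe sets. MAS5 is named in the submitters' processing notes, without a version. The files held 31099 probe sets, of which 57 controls were left out and 19213 tested. Genes were named through 13956 of these with a single symbol in the platform annotation; 323 have several and 4934 have none. Zones were compared on log2(signal + 16) by limma 3.58.1 (R 4.3.3), using contrasts.fit after lmFit and eBayes(trend), on all 24 arrays with the animal as a fixed block, 15 residual degrees of freedom and Benjamini-Hochberg adjustment over all tested probe sets. The pairing comes from the labels, which number the animals. Deviations from the zone means correlated at a median r of 0.176 over 46 pairs of arrays of 1 animal, against -0.046 over 184 pairs of different animals. No 2 arrays were duplicates, and 0 columns were left unmapped. The fit was tested on simulated data.

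The genes, their role groups, the lists of partner, precursor, breakdown and marker genes and the rule for named genes were chosen with earlier results of these data known. That rule takes St6galnac2, up to 5 rises and 5 falls per comparison, the 3 genes of highest mean signal per role and up to 3 of smallest F test p per list, and gives every array for St6galnac2 and 11 genes with the widest range of zone means. Genes named as the members of a count of 5 or fewer, and other features singled out in the text, were chosen after their values were seen. The settings tried were pseudocounts of 1 and 64, quantile normalization, scaling to one median, a stricter filter (percentile 75) or none, no trend, no block or a random one, fitting only the zones compared, averaging a gene's probe sets, and leaving out each animal or single arrays, of which the one without the resting arrays of animals 4 and 5 was added after seeing the data. The other arrays left out held extreme values. They were the epiphyseal and hypertrophic arrays with the highest osteoclast and macrophage sums and the transition array with the lowest St6galnac2 signal. These settings are therefore not independent of the data either. Motifs were counted in RefSeq promoter windows of GRCr8. Drawing used matplotlib 3.10.9 and Python 3.11.15.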

Additional observations from a re-analysis of the deposited data

Results flagged for a closer look

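For the 12 genes given by array, each zone was examined for a single array that stood apart, and 3 of 60 groups held one. Chance marks about 1 in 20 groups, so 3 of 60 is the number that chance gives. In the resting zone, the B3gnt2 signal of animal 3 was 262.1, with the other 4 arrays between 394.6 and 438.2. The Galnt1 signal of animal 1 in the resting zone was 987.4, with the others between 669.4 and 727.7. In the transition zone, the St3gal1 signal of animal 5 was 1075.6, with the others between 401.3 and 531.7. The causes of these values were not tested.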

How the results depend on the processing

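Over 20 alternative settings, of which those that leave out arrays of a single zone drew on values of these data, none of the 48 calls among the 59 genes changed sign. Of these, 24 were called under every setting that tested them, among them those of St6galnac2, Has2, Chst5, Galnt1 and St3gal1, and 24 were lost under at least 1. A further 14 values became calls under at least 1 setting. Counts of genes that moved by more than 1.5 times were these, given without the share of all genes called under the same setting. Resting against epiphyseal cartilage, with 1 rise and 2 falls, gave 0 and 1 with a pseudocount of 64 and with the 75th percentile filter, 1 fall with no filter or only the zones compared, and 0 and 0 when the epiphyseal arrays from animals 1 and 2 were left out. Without the resting arrays of animals 4 and 5 the 1 rise there and the 1 fall in the proliferative against the resting zone were 0 each. The 1 fall in the proliferative against the resting zone was 0 with a pseudocount of 64, quantile normalization, scaling to one median or the stricter filter, and 3 with no filter, and the 3 rises were 1 with averaged probe sets. In the transition against the proliferative zone the 6 rises were 3 with the stricter filter, and the 4 falls were 2 with scaling to one median and 1 with averaged probe sets. In the hypertrophic against the transition zone the 3 rises were 5 with no filter and 1 with the stricter filter, and the 6 falls were 11 with scaling to one median. The 8 rises against the proliferative zone were 4 with the stricter filter. A filter changes how many of the genes are tested, and the other causes were not tested. Leaving out each animal in turn gave 0 to 1 rises and 1 to 2 falls in the resting against epiphyseal comparison, 1 to 2 falls in the proliferative against the resting zone and 1 to 6 falls in the transition against the proliferative zone. Without the replicate block, 42 of the genes passed the F test over 5 zones, against 44 with it, and the number of calls in each pairwise comparison was the same. Probe sets near background, such as those of Chst5, Chst12, St6gal1, Galnt6, Galnt18, Fut11 and Hpse, limit what these arrays resolve, and in 3 of the 5 comparisons the wording of the labels and the zone cannot be told apart.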
